A study of Mus musculus with 4 samples.

Results

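Bone morphogenetic protein (BMP) signalling and its Id target genes were followed through 10 genes in cultured mouse gonocytes: Bmp4, Bmpr1a, Bambi, Smad1, Smad5, Smad6, Smad7, Id1, Id2 and Id3. The members were all probe sets that the array annotation assigns to 1 of these genes alone, which gave 22 of the 45037 probe sets compared. Gonocytes are fetal and newborn male germ cells, the precursors of spermatogonia. They came from testes of mice aged 2 days post partum, of a strain the labels do not give, and were enriched with magnetic beads against THY1, a cell surface protein. Both groups were then kept for 8 h in a medium with no serum, growth factors or feeder cells. The vehicle group received ethanol (2 samples) and the RA group 100 nM retinoic acid (2 samples), the vitamin A derivative that acts through nuclear receptors, and each sample was hybridised to 1 Affymetrix expression array.

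BMPs are secreted ligands of the transforming growth factor beta family. They bind a complex of type I and type II receptors, the type I receptor phosphorylates the Smads of the BMP branch, and these enter the nucleus with the shared partner Smad4. The Id genes are among the best known direct targets; their products lack a DNA-binding region and hold basic helix-loop-helix factors in inactive pairs. Inhibitory Smads and pseudoreceptors, which are targets of the pathway themselves, damp the signal again. In the mouse embryo BMP4 is known for inducing germ cell precursors, and in the young testis BMP ligands are known to act on spermatogonia.

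The promoters of Id3 and Id2 are shown because, of the Id genes, Id3 had the largest difference with RA of the 10 genes and Id2 had almost none. The 250 bases before the start of each gene were read from RefSeq sequence of build GRCm38.p6, in which 7 of the 10 genes were matched, not Id1, Bambi or Smad7. The Id3 stretch is chr4:136143572-136143821 on the plus strand and the Id2 stretch is chr12:25096093-25096342 on the minus strand, each written 5′ to 3′. Capitals mark GTCTG, a part of the Smad-binding element, on either strand, so that it reads CAGAC on the other one. They also mark GGCGCC, a GC-rich site of BMP Smads that is the same on both strands.
Id3: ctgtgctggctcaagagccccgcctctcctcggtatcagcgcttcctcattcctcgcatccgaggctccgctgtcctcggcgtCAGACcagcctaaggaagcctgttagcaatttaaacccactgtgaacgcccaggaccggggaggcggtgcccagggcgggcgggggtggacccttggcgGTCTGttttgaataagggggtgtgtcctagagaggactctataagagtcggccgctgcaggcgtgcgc
Id2: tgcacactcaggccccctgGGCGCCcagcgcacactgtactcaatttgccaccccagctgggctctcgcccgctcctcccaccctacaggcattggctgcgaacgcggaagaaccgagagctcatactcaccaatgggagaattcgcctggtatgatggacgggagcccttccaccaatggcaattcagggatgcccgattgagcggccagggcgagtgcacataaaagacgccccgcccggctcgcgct
The Id3 stretch held the Smad element part on the minus strand from 167 to 163 bases before the start and on the plus strand from 68 to 64 bases before it, and it did not hold the GC-rich site. The Id2 stretch held the GC-rich site from 231 to 226 bases before the start and did not hold the Smad element part. The Smad element part was found in 42.2% of all 32851 promoter windows of this length and the GC-rich site in 9.59%. Over the 7 matched genes, the former was found for 2 (Id3 and Smad5) and the latter for 3 (Bmpr1a, Id2 and Smad5). The nuclear receptor core site AGGTCA, sought on both strands, was found for 0 of the 7 genes and in 14% of all windows. These are matches of letters in a short window, not sites of binding.

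Signals are on the linear scale of the deposited arrays, whose trimmed means lay between 124 and 125. Stra8, a known RA target, read 188 and 53.3 with vehicle against 783 and 1477 with RA, a log2 change of 3.35 ± 0.53 that did not pass the adjustment (10.2-fold; limma, adjusted p = 0.397). Leaving out an array moved that fold: dropping vehicle replicate 1 gave 18.6 and dropping vehicle replicate 2 gave 5.6. Dropping RA replicate 1 gave 14 and dropping RA replicate 2 gave 7.43. Each of these fits left 1 array in a group, so only the fold is given. Germ cell markers were present (Ddx4 between 1121 and 1305, Dazl between 1296 and 1606). Of the 9 germ cell markers, 7 had a negative and 2 a positive log2 change (median −0.20), where 6134 of 13018 genes were negative. Of these markers, 3 were lower on both RA arrays, where 12.6% of all genes were lower in this way. The 3 markers were Zbtb16, with 701 and 699 against 368 and 174, Lin28a, with 385 and 335 against 262 and 254, and Dazl. Markers of other testis cells were present too. The summed signal of 10 peritubular and stromal markers lay between 12024 and 16175, that of 10 Sertoli markers between 3583 and 4979, with Amh and Fshr below the signal filter, that of 5 Leydig markers between 1419 and 2590.2, and that of 8 macrophage and leukocyte markers between 1154 and 3089. The values therefore describe a preparation enriched for THY1 and not gonocytes alone, and fewer cells of a type and less RNA per cell cannot be told apart in them. Whether the samples are separate animals, pools or cultures is not stated in the labels, so a p-value here covers the spread between these 4 samples alone and that spread may be technical.

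The comparison asked how the transcripts of this pathway stood after 8 h of RA. Id3 was higher on both RA arrays and Smad7 was lower on both RA arrays by 1 of its 2 probe sets. The ligand, the receptor, the BMP Smads, Id1 and Id2 showed differences within the spread between samples or differences that their probe sets did not share. No member passed the adjusted test. Of the 22 probe sets, 19 reached the signal filter, a mean signal of 16 or more. In limma, with Benjamini-Hochberg adjustment over all 27022 probe sets above the filter, 0 of the 19 had an adjusted p under 0.05, where 0% of all probe sets did, and each member had an adjusted p of 1. At an unadjusted p under 0.05, 1 of the 19 was higher (Id3) and 1 was lower (Smad7), where 1.12% of all probe sets were higher and 1.65% were lower. The groups did not overlap in 7 of the 19, 4 higher and 3 lower with RA, where 12.7% of all probe sets were higher in this way and 15.2% lower. With each gene read from the probe set of highest mean level, called the brightest, the median log2 change was 0.08 over the 10 genes and 0.01 over all 13018 genes above the filter. An exact permutation test of 1 gene, two-sided, has 0.33 as its smallest possible p in this design.

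**Figure D1:**
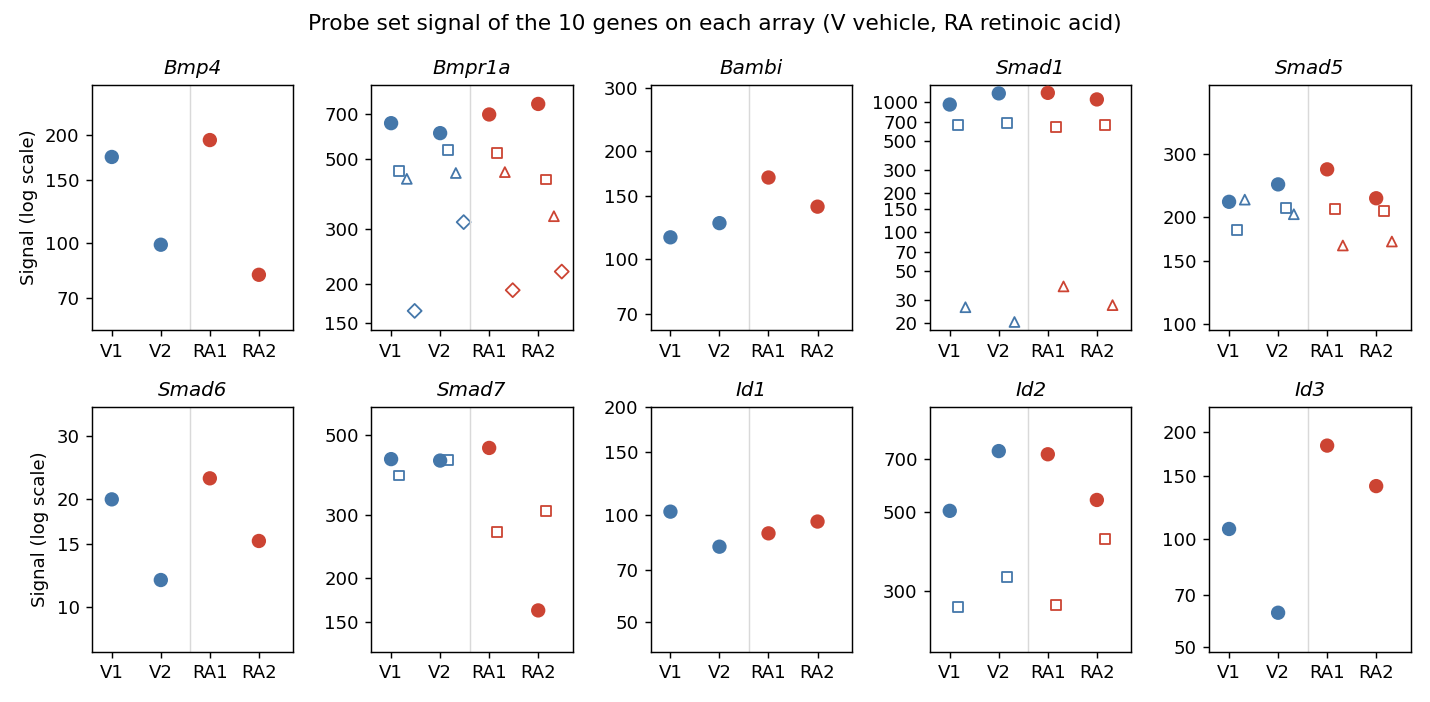
Signal (log scale) of each of the 10 genes on the 2 vehicle arrays (V1 and V2, blue) and the 2 RA arrays (RA1 and RA2, red). Filled circles are the brightest probe set of a gene and open symbols, set slightly to the right, are its other probe sets above the filter, 1 symbol shape per probe set. Id3 and Bambi are higher on both RA arrays, and the 2 probe sets of Smad7 part on the RA arrays.

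Of the Id targets, Id3 gave signals of 107 and 62.4 on the vehicle arrays against 183 and 141 with RA. The groups did not overlap, but the vehicle arrays lay further apart than the lower RA array lay from the higher vehicle array. On the scale of log2(signal + 5), used for all changes, Id3 was higher with RA by 0.93 ± 0.30 (SE, n = 2 per group), a 1.91-fold higher level with a 95% interval of the log2 change from 0.23 to 1.64. Its unadjusted p in limma was 0.0162, rank 264 of the 27022 probe sets, and its adjusted p was 1. The size depended on the array used: the log2 change fell to 0.57 when vehicle replicate 2 was left out and reached 1.30 when vehicle replicate 1 was. It is read by a single probe set (1416630_at), so no second reading of Id3 was at hand.

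Id1, which has a role like that of Id3 and is known as a BMP target too, read 102 and 81.4 with vehicle against 88.7 and 95.7 with RA. Both RA values lay between the vehicle values, and the log2 change was 0.02 ± 0.25 (95% interval −0.56 to 0.59). Id2, of the same family, read 503 and 739 with vehicle against 724 and 539.5 with RA on its brightest probe set (1435176_a_at). The RA arrays again lay inside the vehicle range, with a log2 change of 0.03 ± 0.26. On 1422537_a_at the Id2 signals were 270.4 and 329 with vehicle and 275 and 419 with RA, a log2 change of 0.19 ± 0.25, and the groups overlapped. The remaining Id2 probe set, 1453596_at, stayed below the filter with signals between 4 and 7.3. The Id1 and Id2 intervals include a change of 0 and also changes of over 0.5, so a moderate difference in either gene was not detectable with these arrays.

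The 3 Id genes did not share 1 profile over the arrays. Around their own means, Id1 stood at 0.15, −0.16, −0.04 and 0.06 on the vehicle 1, vehicle 2, RA 1 and RA 2 arrays. Id2 stood at −0.29, 0.26, 0.23 and −0.19 and Id3 at −0.10, −0.83, 0.65 and 0.28 in the same order. Id2 was thus lowest where Id1 was highest, on vehicle array 1, and only Id3 parted the groups. The root mean square difference from the mean profile of the 3 genes was 0.201 for Id1, 0.300 for Id2 and 0.367 for Id3. The 5 genes nearest to that mean profile over the 4 arrays were Zfyve26, Cstf1, Fdft1, Vps4a and Tmem120a, with root mean square differences from 0.0118 to 0.025 and log2 changes from 0.29 to 0.34. They were picked for this nearness, so their small differences and similar log2 changes follow from the choice. The mean profile is not that of any 1 Id gene.

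Some other features of the arrays differed between the groups too. The summed signal of 10 endothelial markers was 494 and 409 with vehicle against 545 and 536 with RA. Flt1, the brightest of them and the only one with a negative log2 change, gave 152 and 86.4 against 155 and 76.5. The order of the summed signals of the 2 RA arrays rests on Flt1, and that of the 2 vehicle arrays does not. Of the 10, 9 had a positive log2 change, with a median of 0.27. Tek, Tie1, Robo4 and Egfl7 were higher on both RA arrays, where 14.2% of all genes were higher in this way. Of 8 Sertoli markers above the filter, 4 were positive and 4 negative, with a median of 0.03, while Wt1 (238 and 207 against 353 and 308) and Sox9 (446 and 424 against 619.5 and 534) were higher on both RA arrays. The summed Sertoli signal overlapped between the groups (3583 and 4589 against 3978 and 4979). The ratio of 3′ to 5′ signal of the control transcript Actb, a measure of RNA and amplification quality, was 1.72 and 1.73 with vehicle against 2.08 and 2.32 with RA, and that of Gapdh 1.56 and 1.47 against 1.85 and 2. The part of these differences in the value of Id3, and in those of the other genes below, was not tested.

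Of the 10 genes, the inhibitory Smad gene Smad7 had the largest lower value. Smad7 blocks BMP and transforming growth factor beta receptors and is read by 2 probe sets of nearly equal mean signal. On 1423389_at, Smad7 gave 386 and 427 with vehicle and 269 and 308 with RA. Both RA arrays were lower than both vehicle arrays, a 1.4-fold lower level (log2 change −0.49 ± 0.20, SE, 95% interval −0.94 to −0.03; limma, unadjusted p = 0.0394, adjusted p = 1). With 1 array left out in turn, this log2 change stayed between −0.58 and −0.39. On 1443771_x_at, a probe set of the type that may also bind other transcripts, Smad7 gave 429 and 425 with vehicle and 461 and 162 with RA. Here RA array 1 was the highest of the 4 and RA array 2 the lowest, so the groups overlapped and the log2 change of −0.63 ± 0.42 rested on RA replicate 2; without it the change was 0.11, and without RA replicate 1 it was −1.37. The probe sets of Smad7 therefore gave the same sign with all 4 arrays but disagreed on both RA arrays. In the order given above, they read 269 and 461 on RA array 1 and 308 and 162 on RA array 2.

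Smad6, which acts mainly on BMP receptors and Smad1, was dim, at 20 and 11.9 with vehicle against 22.9 and 15.3 with RA. The groups overlapped, and the log2 change was 0.21 ± 0.36. Both arrays numbered 1 were higher than both arrays numbered 2 for Smad6, whatever the treatment. Signals this close to the pseudocount of 5 say little about ratios.

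The ligand gene Bmp4 had the same order. Its signals were 174 and 98.9 with vehicle and 194 and 81.5 with RA. The groups overlapped fully, the arrays numbered 1 being above those numbered 2 in both, and the log2 change was −0.05 ± 0.42 (95% interval −1.04 to 0.93). Without vehicle replicate 1 or RA replicate 2 it was positive, 0.34 and 0.55, and without vehicle replicate 2 or RA replicate 1 it was negative, −0.45 and −0.66. The summed peritubular and stromal signal ran the other way, 12036 and 12024 on the arrays numbered 1 and 15038 and 16175 on those numbered 2. So did the macrophage and leukocyte sum, 1533 and 1154 against 3089 and 2574, and the Leydig sum, 1419 and 1555 against 2590.2 and 2033. The Sertoli sum ran this way too, 3583 and 3978 against 4589 and 4979. The endothelial sum did not, at 494 and 545 against 409 and 536. The part of these cell markers in the values of Bmp4 and Smad6 was not tested.

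Bmpr1a encodes a type I receptor for BMP2 and BMP4 and is read by 6 probe sets, which differed in direction. On the brightest, 1425493_at, Bmpr1a gave 652 and 606 with vehicle and 695 and 751 with RA. The RA arrays were higher than the vehicle arrays, with a log2 change of 0.20 ± 0.19 that lay between 0.14 and 0.26 when 1 array was left out. The log2 changes of the other 3 probe sets above the filter were −0.06 ± 0.21, −0.19 ± 0.22 and −0.15 ± 0.31, each with overlapping groups. The remaining 2 stayed below the filter; on 1451729_at the signals were 17.9 and 18.9 against 11.3 and 13, lower with RA. No direction for Bmpr1a was therefore shared by its probe sets.

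Bambi, a pseudoreceptor that resembles type I receptors but lacks the kinase and so blocks signalling, gave 115 and 126 with vehicle and 169 and 140.1 with RA. The groups did not overlap. The log2 change was 0.34 ± 0.22 (95% interval −0.18 to 0.86; limma, unadjusted p = 0.172, adjusted p = 1), a 1.26-fold higher level, and it stayed positive, between 0.21 and 0.47, with 1 array left out in turn. Bambi and Id3 were the only genes of the 10 that kept their sign under every setting tried. Each is read by a single probe set, so the choice of probe sets could not change their sign. Bmpr1a changed sign only with the mean of all its probe sets, at −0.18. Smad7 on 1423389_at was negative in every fit, and its reversal came from 1443771_x_at.

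The BMP Smads showed little difference. Smad1 gave 951 and 1158 with vehicle and 1169 and 1041 with RA on its brightest probe set, 1459843_s_at, with overlapping groups and a log2 change of 0.07 ± 0.21. On 1448208_at the Smad1 signals were 661 and 682 against 643 and 661; the RA arrays counted as lower by less than 1 unit of signal, and the log2 change was −0.04 ± 0.19. The dim probe set 1416081_at gave 26.6 and 20.5 against 38.4 and 27.6, higher with RA on both arrays, with a log2 change of 0.41 ± 0.32. Smad5, which shares the role of Smad1, gave 219.9 and 246 with vehicle and 271 and 225 with RA on 1451873_a_at, a log2 change of 0.08 ± 0.21, and 0.08 ± 0.20 on 1433641_at, both with overlapping groups. On 1421047_at the Smad5 signals were 223 and 203 against 166 and 170.3, lower on both RA arrays (log2 change −0.33 ± 0.20; limma, unadjusted p = 0.141). The probe sets of both genes thus differed in direction, and the 95% intervals of the brightest ones ran from −0.42 to 0.57 for Smad1 and from −0.40 to 0.56 for Smad5.

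**Figure D2:**
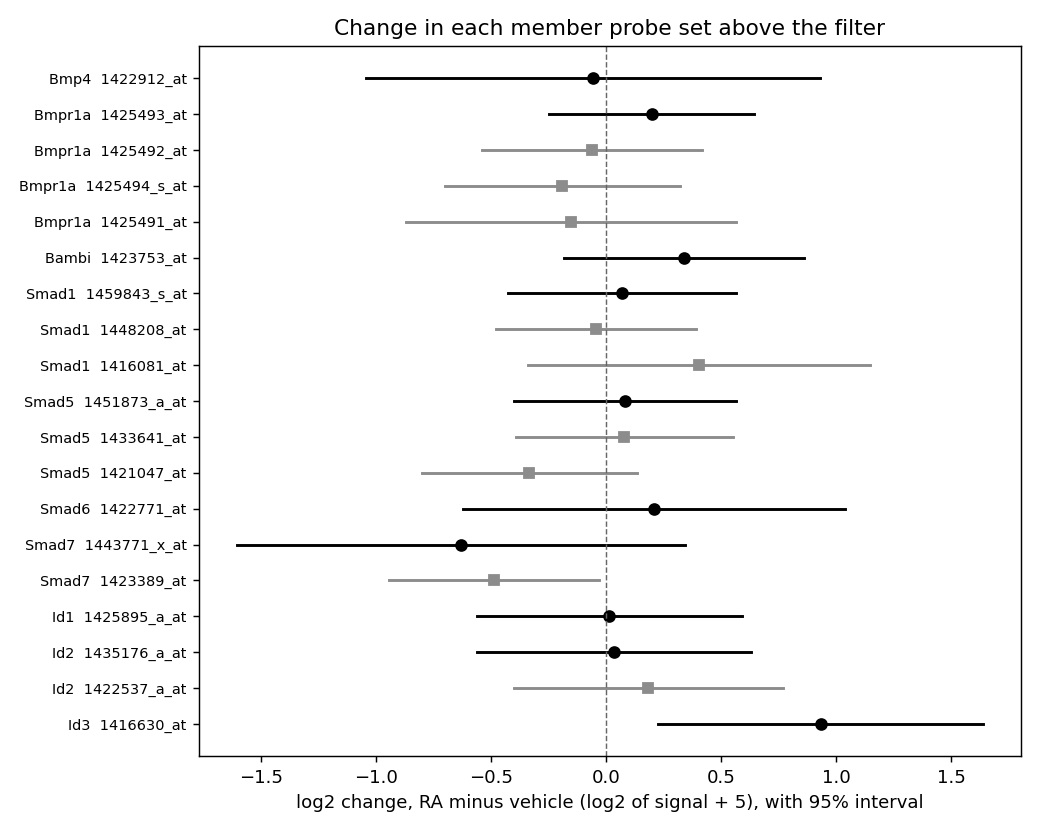
Log2 change of RA minus vehicle for the 19 probe sets above the filter, with the 95% interval from limma, 2 arrays per group; black circles are the brightest probe set of a gene and grey squares its others. The interval leaves out 0 for Id3 (0.23 to 1.64) and for Smad7 on 1423389_at (−0.94 to −0.03) before any adjustment for the number of probe sets.

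**Figure D3:**
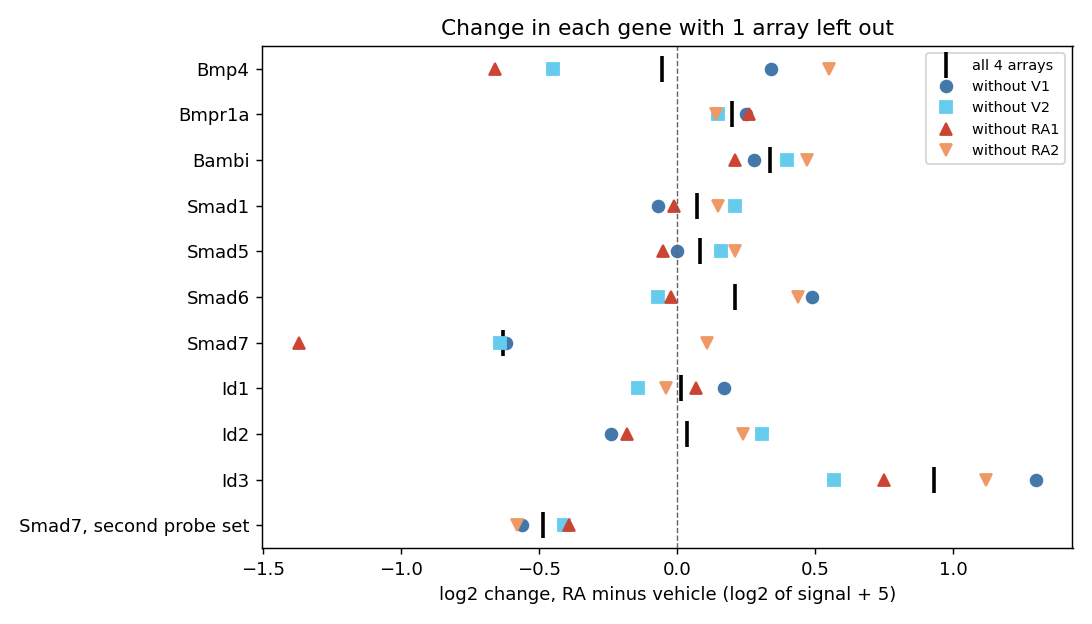
Log2 change of RA minus vehicle for each gene's brightest probe set and for the second Smad7 probe set, with all 4 arrays (black bar) and with 1 array left out (coloured symbols; V vehicle). Id3 lies between 0.57 and 1.30, and Bmp4 lies on both sides of 0, from −0.66 to 0.55.

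The other genes of the pathway were read from a list of 55 in 6 roles, 51 of them on the array and 37 above the filter. In limma 0 of the 37 were higher and 0 lower at an adjusted p under 0.05, where 0% of all genes were. At an unadjusted p under 0.05, 0 were higher and 1 was lower, where 1.44% of all genes were higher and 1.29% lower. The groups did not overlap in 12 of the 37, 6 higher and 6 lower with RA, where 14.2% of all genes were higher in this way and 12.6% lower. The median log2 change was 0.03, with 19 positive and 18 negative.

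Id4, the fourth Id gene and a known marker of spermatogonial stem cells, was the gene with the unadjusted p under 0.05, and it was lower with RA. Its signals were 1167 and 1067 with vehicle and 672 and 725 with RA, a 1.59-fold lower level (log2 change −0.67 ± 0.20; limma, unadjusted p = 0.00955, adjusted p = 1). On 1450928_at the Id4 signals were 495 and 485 against 245 and 201 (log2 change −1.12 ± 0.20; limma, adjusted p = 0.534) and on 1423260_at 78 and 60.2 against 42 and 34.7 (−0.77 ± 0.29). All 3 probe sets of Id4 were lower on both RA arrays, while the probe set of Id3 was higher on both. The difference between the changes of Id3 and Id4 was not tested. The germ cell markers Zbtb16 (log2 change −1.45 ± 0.33) and Lin28a (−0.47 ± 0.19), both at adjusted p = 1 (limma), were also lower on both RA arrays. The summed signal of the 9 germ cell markers was 8216 and 8023 with vehicle against 7664 and 7994 with RA. Sall4, the brightest of the 9, gave 2268 and 2530.4 against 2311 and 3776 and weighed most in this sum, while 7 of the 9 had a negative log2 change. The part of the germ cell markers in the value of Id4 was not tested.

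Of the other 8 listed targets, 7 were above the filter, and Tcf7l2 (log2 change −0.48 ± 0.22) and Atoh8 (−0.65 ± 0.30) were lower on both RA arrays; these are named after their values were seen. The 8 targets above the filter, with Id4, had a median of −0.10. All 5 listed ligands above the filter had a positive log2 change, with a median of 0.19, as did 6884 of all 13018 genes. Bmp5 and Bmp7 were near 0, at 0.06 and 0.07, and Bmp4, described above and not counted here, stood at −0.05. Dimmer probe sets above the filter gave −0.39 for Bmp8b and 0.14 for Bmp7. Among the 5 ligands, Bmp6 had the smallest p. Its signals were 66.3 and 54.1 against 86.2 and 88.4, higher on both RA arrays (log2 change 0.51 ± 0.26; limma, unadjusted p = 0.0853, adjusted p = 1).

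Of 9 receptors and co-receptors above the filter, 3 were positive and 6 negative, with a median of −0.07. Acvr1, a type I receptor, gave 257 and 208 with vehicle and 316 and 292 with RA, higher on both RA arrays by a log2 change of 0.39 ± 0.21; its other probe set above the filter gave 0.18 ± 0.24. The shared partner Smad4 stood at 0.13 ± 0.20. Of 7 extracellular antagonists and modulators, 4 were positive and 3 negative. Bmper, a secreted protein that binds BMPs, gave 159 and 203 with vehicle and 137 on each RA array, a log2 change of −0.38 ± 0.22. Of 7 intracellular regulators, 4 were positive and 3 negative. Ski, a corepressor that binds Smads, gave 917 and 962 against 698 and 794, lower on both RA arrays by a log2 change of −0.33 ± 0.20, and −0.34 ± 0.20 on its second probe set. None of these genes passed the adjusted test, with an adjusted p of 1 for each in limma.

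**Figure D4:**
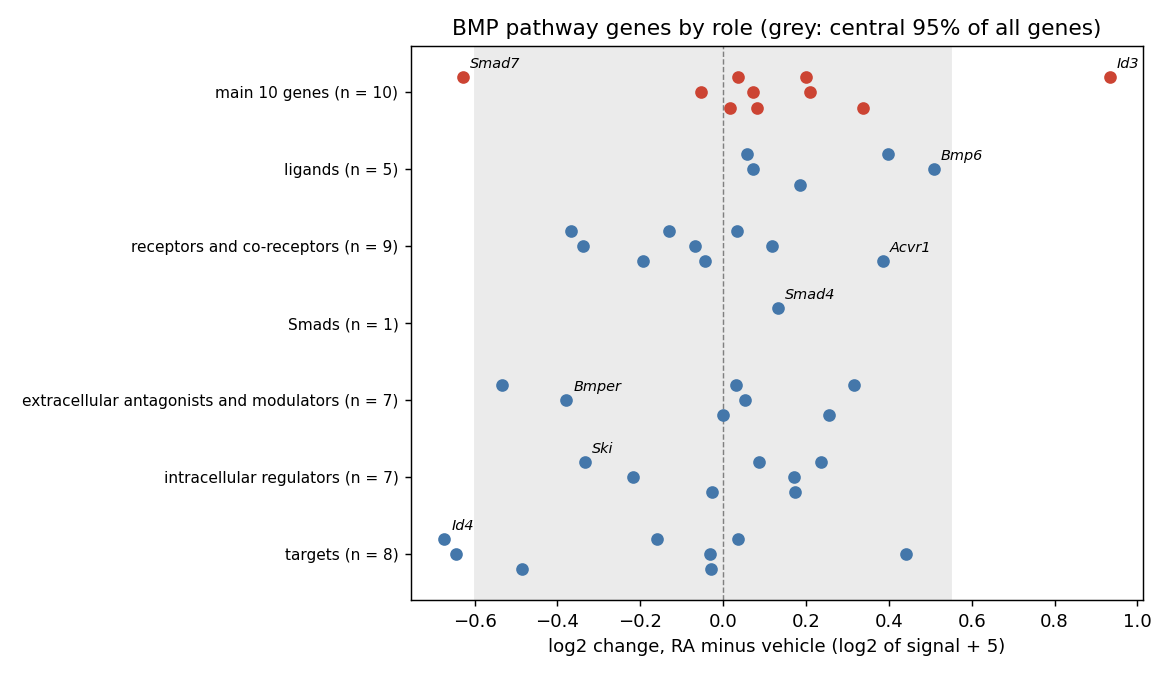
Log2 change of RA minus vehicle for the 10 genes (red) and for the other BMP pathway genes above the filter by role (blue), each from its brightest probe set, 1 point per gene with the vertical offset only for legibility. The grey band holds the central 95% of all 13018 genes, from −0.60 to 0.55. Id3 lies above it, and Smad7, Id4 and the target gene Atoh8 lie below it. Smad7 is shown on 1443771_x_at, where the groups overlap. Its other probe set, 1423389_at, has a log2 change of −0.49, within the band.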

How the data were processed

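The 4 samples were measured on Affymetrix Mouse Genome 430 2.0 arrays. Per the labels, cDNA was made from 75 ng of RNA with NuGEN's Ovation kit, version 2, and GCOS 1.2 read the images. The table the authors deposited holds a linear intensity for every probe set on every array. Its summarising and scaling steps are not given in the sources used here. Trimmed means (2% at each end) were equal to within 1 unit, so no normalization was added.

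Groups came from the sample titles. Control probe sets (64) were left out. Values were taken as log2(intensity + 5), which understates the changes of dim genes. Probe sets whose mean signal reached the 40th percentile, 27022 of them, were tested two-sided (limma 3.58.1, lmFit and eBayes with a trend on intensity, R 4.3.3) and adjusted by Benjamini-Hochberg. There were 2 residual degrees of freedom, 5.71 more from the prior, and no term for the replicate number. The code was tested on simulated data. The amplification favours the 3′ end, so distant probe sets can read low.

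Symbols came from the platform annotation, updated by Entrez ID through a gene table of GRCm38.p6 (34741 probe sets matched). Of all probe sets, 34945 named 1 gene, 932 several and 9160 none. Probe sets have no stated genome build, so they get no coordinates. The members, the pathway list and the marker lists (germ, Sertoli, Leydig, peritubular and stromal, endothelial, macrophage and leukocyte) were chosen with earlier results of these data known. Median log2 changes of the marker lists were −0.20 for 9 germ cell, 0.03 for 8 Sertoli, −0.26 for 5 Leydig, 0.04 for 10 peritubular and stromal, 0.27 for 10 endothelial and −0.28 for 8 macrophage and leukocyte genes. Named genes were all members, Stra8, in each role of the list those with no overlap of the groups and a raw p under 0.05, or else the one with the smallest p, and the 5 nearest to the Id profile. Genes that no probe set names alone were not analysed here. Alternatives covered the normalization, pseudocount (1 and 20), filter, variance model, replicate block, each array left out and the choice of probe sets. Plots were made in matplotlib 3.10.9 (Python 3.11.15).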

Additional observations from a re-analysis of the deposited data

How the results depend on the processing

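Of the settings tried, those for normalization, pseudocount, filter, variance model and choice of probe sets gave 0 called probe sets overall (where all probe sets were tested), among the members and in the pathway list. With the replicate number as a block, 558 of the 27022 probe sets above the filter were called. Of the 19 member probe sets, 2 were called. These were Id3 (log2 change 0.93, adjusted p = 0.00161, limma) and Smad7 on 1443771_x_at (−0.63, adjusted p = 0.0389, limma). Of the 37 pathway genes above the filter, 1 was called on its brightest probe set, Id4 (−0.67, adjusted p = 0.0246, limma). Of the dimmer ones, Id4 on 1450928_at (−1.12, adjusted p = 8.99e-07), Rgmb on 1428430_at (−0.97, adjusted p = 0.0126) and Tcf7l2 on 1429427_s_at (−0.98, adjusted p = 0.023, limma) were called with the block too. That fit had 1 residual degree of freedom and an infinite prior, so each probe set took the spread that the trend gave and not its own; the Smad7 probe set was called although its RA arrays gave 461 and 162. Same-numbered samples deviated together (r = 0.532 across probe sets, which are not independent). There are only 2 pairs, and the labels give them a shared number and no shared batch. The source of the shared deviation was not tested.

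With 1 array left out, between 0 and 138 probe sets were called, between 0 and 1 of them of members, and between 0 and 1 genes of the pathway list on the brightest probe set. There were 96 without RA replicate 1, with Smad7 on 1443771_x_at, Fst and, on a dimmer probe set, Id4 (1450928_at, −1.26, adjusted p = 0.00648, limma), and 138 without RA replicate 2. Of 149 member values over all settings, 17 had the other sign and all others kept it. Leaving out an array reversed Bmp4 (range −0.66 to 0.55), Smad1 (−0.07 to 0.21), Smad5 (−0.05 to 0.21), Smad6 (−0.07 to 0.49), Smad7 (−1.37 to 0.11), Id1 (−0.14 to 0.17) and Id2 (−0.24 to 0.31). Equal array medians, which moved the median of all genes from 0.01 to 0.09, gave 0.02 for Bmp4. The mean of all probe sets gave −0.18 for Bmpr1a, −0.06 for Smad5 and −0.15 for Acvr1, and probe sets without a suffix gave −0.04 for Smad1 and −0.18 for Id2, in which other probe sets enter. The cause of the other reversals was not tested. Signals near the pseudocount limit Smad6 and the dim probe sets of Bmpr1a, Id2 and Smad1.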

Other observations

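Some pathway genes had dimmer probe sets that differed from the brightest one, which alone entered the counts; these are named after their values were seen. Rgmb encodes a BMP co-receptor. The log2 change of its brightest probe set was −0.04, while 1428430_at read 60.8 and 67.1 with vehicle against 32.1 and 28.5 with RA (log2 change −0.97 ± 0.28; limma, unadjusted p = 0.00894, adjusted p = 1, and 0.0126 with the replicate block). For Fstl1, a secreted protein of the follistatin family, these were 0.05 on the brightest and 867 and 900 against 641 and 538 on 1416221_at (−0.58 ± 0.20; limma, unadjusted p = 0.0198, adjusted p = 1). Tcf7l2, a transcription factor of Wnt signalling, was lower on all 4 of its probe sets above the filter, at −0.48 on the brightest and at −0.79, −0.71 and −0.98 on the others. The last of these, 1429427_s_at, was called with the replicate block (limma, adjusted p = 0.023).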
